A study of Mus musculus with 2 samples.

Results

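Haemoglobin-rich barcodes are droplets of the aortic arch suspension in which RNA for adult haemoglobin made up a visible part of all RNA. A barcode is the tag shared by the molecules of 1 droplet, and a UMI is 1 counted molecule. They were chosen on measured values. A barcode was kept if it held 200 genes and 200 UMIs or more, with no more than 30% of UMIs from mitochondrial genes. A kept barcode was chosen if the globin genes Hbb-bt, Hbb-bs, Hba-a1 and Hba-a2 together gave 1% or more of its UMIs and Alas2 had at least 1 UMI. These limits were met by 276 of 8155 kept barcodes, or 3.38%. Of these, 45 came from the ND library and 231 from the HFD library. The values that chose them are therefore given as a description only.

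Each library was made from the pooled aortas of 2 male Apoe-/- C57BL/6 mice, aged 16 weeks. Both groups carried the Apoe deletion, and they were fed a normal diet (ND) or a high-fat and high-cholesterol diet (HFD) for 12 weeks. The arteries were rinsed locally with cold PBS before the arch was digested by enzymes, and the methods describe neither a sort nor a lysis of red cells for this suspension. With 1 library per diet there was no replicate, so no difference was tested, and diet, mice, dissection and library cannot be told apart. Intervals in parentheses are exact 95% intervals that cover counting error only.

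Haemoglobin is built from alpha chains (Hba genes) and beta chains (Hbb genes) around haem, and Alas2 catalyses the first step of haem synthesis in red cell precursors. Reticulocytes are the youngest red cells of the blood. They have expelled the nucleus but still hold globin RNA, and they clear mitochondria and ribosomes by autophagy and ubiquitin-dependent breakdown before they become mature erythrocytes. Endothelial cells, fibroblasts and macrophages of the arterial wall do not make haemoglobin at such levels, which is why markers of these classes were examined in the same barcodes.

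The promoters of the genes behind the choice are shown as background. The rule itself required globin and Alas2 RNA in the same droplet, so their presence together is not a result. The 250 bases before the RefSeq start are given 5′ to 3′ on GRCm38.p6. The capitals mark TATAA (the TATA box), the CCAAT box, the CACCC box and the GATAA core bound by GATA factors, on either strand. The Hbb-bs window is chr7:103827929-103828178 and the Hbb-bt window is chr7:103813924-103814173, both on the minus strand. The Hba-a1 window is chr11:32283422-32283671 and the Alas2 window is chrX:150547167-150547416, both on the plus strand.
Hbb-bs: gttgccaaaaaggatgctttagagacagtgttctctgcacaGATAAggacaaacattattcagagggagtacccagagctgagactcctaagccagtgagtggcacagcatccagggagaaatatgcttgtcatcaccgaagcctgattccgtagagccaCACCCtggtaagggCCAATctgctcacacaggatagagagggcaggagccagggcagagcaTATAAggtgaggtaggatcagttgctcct
Hbb-bt: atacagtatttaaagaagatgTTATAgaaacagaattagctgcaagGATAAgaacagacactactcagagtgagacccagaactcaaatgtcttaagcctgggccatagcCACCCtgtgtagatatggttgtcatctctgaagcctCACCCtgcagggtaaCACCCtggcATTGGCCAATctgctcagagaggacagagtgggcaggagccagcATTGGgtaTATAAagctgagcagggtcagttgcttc
Hba-a1: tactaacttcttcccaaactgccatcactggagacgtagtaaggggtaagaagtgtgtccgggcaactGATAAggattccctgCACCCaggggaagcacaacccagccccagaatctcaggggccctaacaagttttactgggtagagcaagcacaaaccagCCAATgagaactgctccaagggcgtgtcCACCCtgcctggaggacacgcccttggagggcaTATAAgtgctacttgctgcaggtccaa
Alas2: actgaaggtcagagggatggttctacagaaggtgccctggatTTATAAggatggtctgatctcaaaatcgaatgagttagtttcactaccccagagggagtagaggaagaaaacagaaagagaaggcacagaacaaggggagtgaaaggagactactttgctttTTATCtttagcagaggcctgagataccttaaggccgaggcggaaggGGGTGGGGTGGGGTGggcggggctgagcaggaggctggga
All 4 of these short motifs were present in Hbb-bs, Hbb-bt, Hba-a1 and Hba-a2, compared with 0.968% of 32851 promoters of the same length. On their own, TATAA was in 22.8%, CCAAT in 33.8%, CACCC in 52.0% and GATAA in 22.6% of these promoters. The TATAA nearest the start began 29 bases before it in Hbb-bs, 28 in Hbb-bt and 27 in Hba-a1, and CCAAT began 76, 75 and 88 bases before it. In Hbb-bt, CCAAT was also found on the opposite strand, from 80 and from 36 bases before the start. The Alas2 window held no CCAAT. It had 3 adjoining CACCC matches on the opposite strand, the farthest from 40 bases before the start, a TATAA only at 207 bases, and GATAA on the opposite strand at 86 bases. A match of letters is not evidence of binding.

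The similarity of the copies limits which of them can be told apart. Hbb-bs (ENSMUSG00000052305, chromosome 7, 103826534 to 103828096) and Hbb-bt (ENSMUSG00000073940, chromosome 7, 103812524 to 103813996) lie on the minus strand in GENCODE M21. Their main transcripts were 93.2% identical over 621 aligned bases and shared an unbroken run of 430 bases, while their 3′ untranslated regions were 74.2% identical. Hba-a1 (ENSMUSG00000069919, chromosome 11, 32283511 to 32284465) and Hba-a2 (ENSMUSG00000069917, chromosome 11, 32296489 to 32297298) were 99.8% identical over 538 bases. Their 3′ untranslated regions matched at every one of the 74 bases aligned, so the split of UMIs between Hba-a1 and Hba-a2 is uncertain and only their sum is used here. Alas2 (ENSMUSG00000025270, chromosome X, 150547375 to 150570638) has 11 exons.

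Haemoglobin-rich barcodes were 0.831% (0.607% to 1.11%) of the 5416 ND barcodes and 8.43% (7.42% to 9.54%) of the 2739 HFD barcodes, a share 10.2-fold higher in HFD. HFD provided 83.7% of them, while it provided 33.6% of all kept barcodes. These shares depend on the gene and mitochondrial limits, which kept 5416 of 10234 barcodes in ND and 2739 of 14225 in HFD. Over all barcodes, kept or not, the globin and Alas2 limits were met by 220 in ND and 1321 in HFD, a smaller difference in share. Globin RNA was also more abundant outside them: of the remaining kept barcodes, 40.4% in ND and 91.7% in HFD had at least 1 globin UMI, with medians of 0 and 3 UMIs. Over all barcodes of a library, kept or not, globin was 1.45% of UMIs in ND and 5.56% in HFD. The library with more haemoglobin-rich barcodes was thus also the one with more globin UMIs in all other droplets. Depth was alike for the chosen barcodes, with median totals of 5333 UMIs in ND and 5475 in HFD, compared with 3714 and 5318.5 for the others. Kept barcodes held 27137322 UMIs in ND and 17191279 in HFD.

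Globin made up between 2.70% and 84.1% of UMIs in the ND barcodes, with a median of 37.2%, and between 2.10% and 76.4% in the HFD barcodes, with a median of 30.1%. No member was just above the threshold, since none held between 1% and 2% globin. Just below it, the kept barcodes with an Alas2 UMI reached 0.064% in ND and 0.134% in HFD. A further 23 ND and 63 HFD barcodes had 1% globin or more, from 1.35% to 35.9% and from 1.02% to 52.0%, but no Alas2 UMI, and they were not counted as members. Alas2 itself ranged from 1 to 17 UMIs with a median of 4 in both libraries, and 8 ND and 39 HFD barcodes had only 1.

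The number of globin UMIs varied less than the share. It had a median of 2149 in ND, with quartiles of 1000 and 2944, and of 1793 in HFD, with quartiles of 1330 and 2257.5. All other UMIs had quartiles of 1854 and 5743 in ND and of 2347 and 6240 in HFD. Across barcodes, globin UMIs and other UMIs were related weakly and negatively (Spearman's rho -0.24 over 45 ND and -0.17 over 231 HFD barcodes), while globin and Alas2 UMIs were related positively (rho 0.72 and 0.66). These are descriptions of barcodes of 1 library each, in which the rule set a lower limit on both measures. The barcodes in which globin exceeded 50% of UMIs, 13 in ND and 41 in HFD, had medians of 466 and 310 genes. Those between 10% and 25% globin had medians of 1958.5 and 2216 genes.

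**Figure D1:**
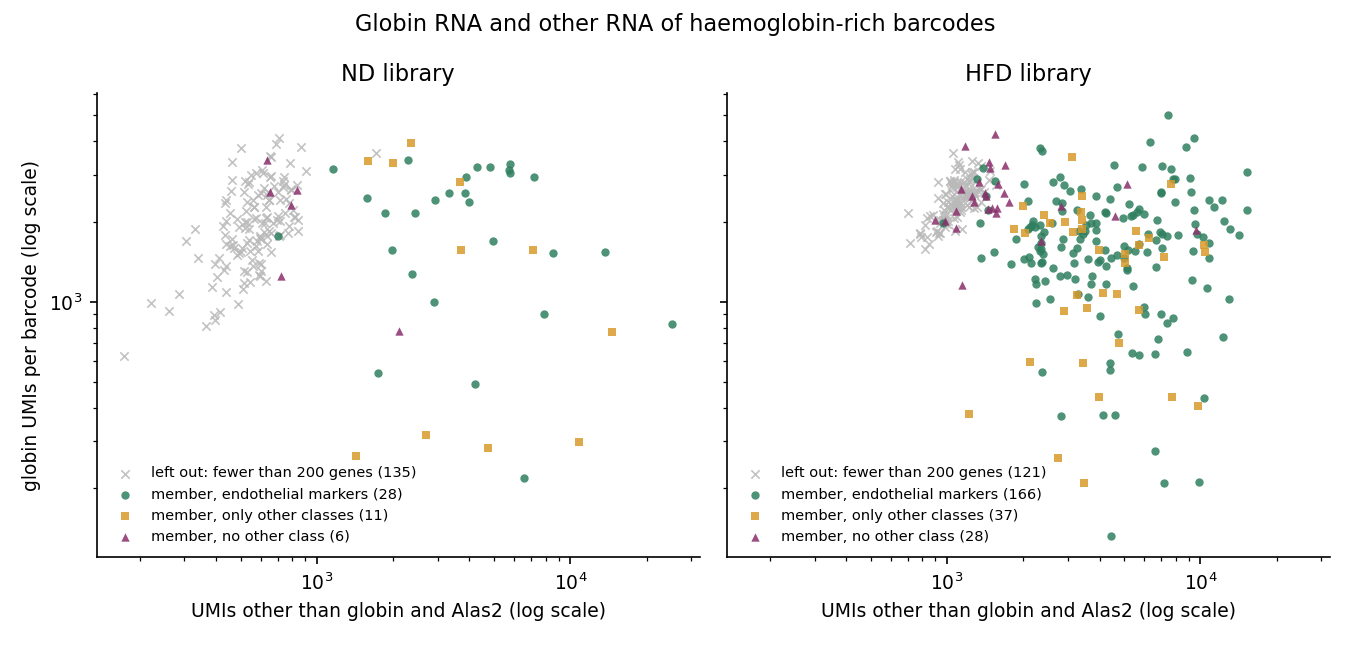
Globin UMIs against all other UMIs (without Alas2) of each barcode, both on log scales, for ND and HFD. Members with at least 3 endothelial markers (28 in ND, 166 in HFD) spread over a wide range of other RNA, while members with no other class (6 and 28) sit mostly beside the barcodes left out for having fewer than 200 genes (135 and 121).

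The composition of globin RNA was close in both libraries. Alpha globin was 34.5% (34.2% to 34.8%) of globin UMIs in ND and 32.9% (32.7% to 33.0%) in HFD. Per 1000 globin UMIs there were 2.36 (2.06 to 2.70) UMIs of Alas2 in ND and 2.36 (2.21 to 2.51) in HFD. The other globin genes were nearly silent: the embryonic genes Hbb-bh1, Hbb-y and Hba-x and also Hbb-bh2 were at 0 UMIs in members of both libraries, and Hbq1a and Hbq1b had between 0 and 5 UMIs.

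Hbb-bt, the less abundant of the adult beta chains, made up 15.1% (14.8% to 15.4%) of beta globin UMIs in ND members and 16.7% (16.5% to 16.8%) in HFD members. In the kept barcodes with globin but no Alas2 UMI, it was 5.06% (4.60% to 5.56%) in ND and 7.31% (6.95% to 7.68%) in HFD, lower than in members of the same library. In barcodes with less than 1% globin, it was 12.8% (11.5% to 14.3%) and 12.6% (11.7% to 13.5%). Single members ranged from 1.33% to 22.0% in ND and from 0% to 28.1% in HFD. Below 5% were 12 ND and 20 HFD members, and these held fewer globin UMIs than the others, with medians of 775.5 against 2563 in ND and 492.5 against 1844 in HFD. The part of beta globin given by Hbb-bt was therefore not uniform among members, and its low values were found mainly where globin was least abundant. Among members, Alas2 per globin UMI had a rho with this part of -0.02 in ND and 0.09 in HFD. Every member held an Alas2 UMI by the rule, so these values cannot show whether Alas2 was related to it.

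**Figure D2:**
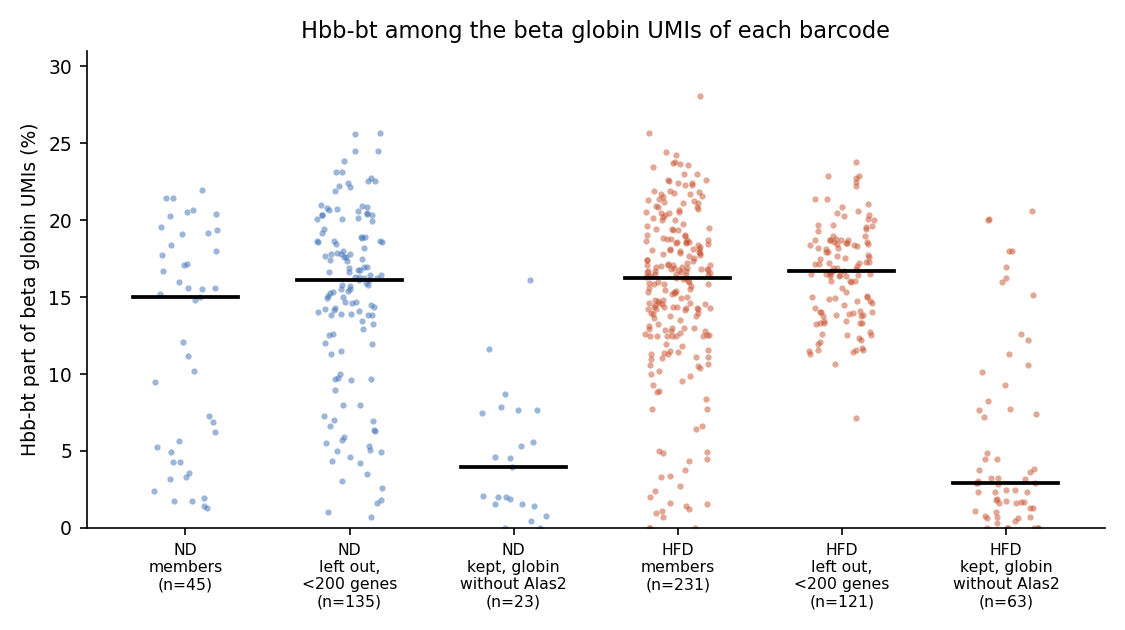
Hbb-bt as a percentage of Hbb-bs and Hbb-bt UMIs in each barcode (points) with the median of each set (line). Members and left-out barcodes with fewer than 200 genes have medians between 15.02% and 16.7%, and kept barcodes with globin but no Alas2 UMI have medians of 3.94% in ND and 2.94% in HFD.

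Genes of the red cell programme that the choice did not use were then examined, as CPM relative to all UMIs except globin and Alas2. Of 80 listed genes, 41 had at least 20 UMIs in members and 11 had none. Among the 41, 19 (46.3%) were at least 2-fold higher in members than in other kept barcodes in both libraries, and 0 were 2-fold lower in both. Over all 6522 genes with as many UMIs in members, 0.905% were 2-fold higher in both. The minimum was set on members, so a gene that other barcodes hardly express could pass only through them.

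Of 5 membrane and cytoskeleton genes with enough UMIs, 4 were 2-fold higher in both libraries. Slc4a1, the anion exchanger band 3, was at 69.3 CPM in ND members and 118 CPM in HFD members, with 1 and 3 UMIs in all other barcodes of these libraries (log2 intervals of the ratio 8.14 to 16.26 and 7.69 to 11.56). Epb41, which links the membrane to the cytoskeleton, was 5.57-fold higher in ND members and 7.38-fold higher in HFD members.

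Among the genes of haem and iron, Fech, which inserts iron into the haem ring, was 11.8-fold higher in ND members and 8.50-fold higher in HFD members. Slc25a37, the mitochondrial iron importer mitoferrin, was 19.3-fold and 17.9-fold higher, and Ncoa4, the receptor that sends ferritin to autophagy, 2.42-fold and 2.43-fold. The ferritin chains were below 2-fold: Ftl1 was at 1.14-fold and 0.722-fold of the level in other barcodes, and Fth1 at 0.780-fold and 0.529-fold. Tfrc, the transferrin receptor of maturing erythroblasts, was at 1.09-fold (log2 interval -1.09 to 1.11) and 1.48-fold.

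Of red cell metabolism, Bpgm, which makes the phosphate compound that lowers the oxygen affinity of haemoglobin, was 32.2-fold higher in ND and 21.9-fold higher in HFD members. Car2, a carbonic anhydrase, was 12.7-fold higher in ND with 6 UMIs in 4 barcodes, and 67.8-fold higher in HFD with 140 UMIs in 56 barcodes. Prdx2 and Blvrb, abundant redox proteins of red cells, were at 1.81-fold and 1.46-fold in ND and at 2.03-fold and 1.27-fold in HFD.

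The list of reticulocyte maturation held 12 genes with enough UMIs, of which 8 were 2-fold higher in both libraries. Bnip3l, the receptor for the removal of mitochondria, was 3.58-fold and 3.20-fold higher. The ubiquitin-system genes Ube2l6 (15.1-fold and 12.8-fold), Ube2o (8.86-fold and 13.3-fold) and Mkrn1 (12.5-fold and 9.81-fold) and the poly(A) polymerase Fam46c (17.3-fold and 18.1-fold) were higher in the same way.

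Of the 9 genes on the erythroid transcription list, 4 had at least 20 UMIs in members, and 0 of these were 2-fold apart in both libraries. Tal1 was at 0.492-fold in ND with 2 UMIs and at 1.46-fold (log2 interval -0.04 to 1.09) in HFD with 30, and Zfpm1, a cofactor of Gata1, at 0.838-fold with 4 UMIs and 1.61-fold (0.16 to 1.18) with 37. Lmo2 and Ldb1, which many cells express, were at 0.661-fold and 0.855-fold in HFD. No UMI of Gata1, Klf1 or Gfi1b, which regulate erythroblasts, was found in the members of either library. The limit that 0 UMIs allows is 14.9 CPM in ND and 2.78 CPM in HFD (3 UMIs). The proliferation genes Mki67 and Top2a had 6 UMIs each in ND members and 14 and 15 in HFD members. Neither of them was 2-fold apart from other barcodes in the same direction in both libraries. Below the minimum of 20 UMIs, and named after their values were seen, Nfe2 was at 6.06-fold (log2 interval 0.74 to 4.21) in HFD with 5 UMIs in 3 members, and Myb at 3.11-fold (0.73 to 2.46) with 15 UMIs in 6 members. Neither had a UMI in ND members. Platelet markers were rare: at least 3 of 10 were present in 0 ND members, which allows a share of up to 7.87% by the exact interval, and in 2 HFD members.

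**Figure D3:**
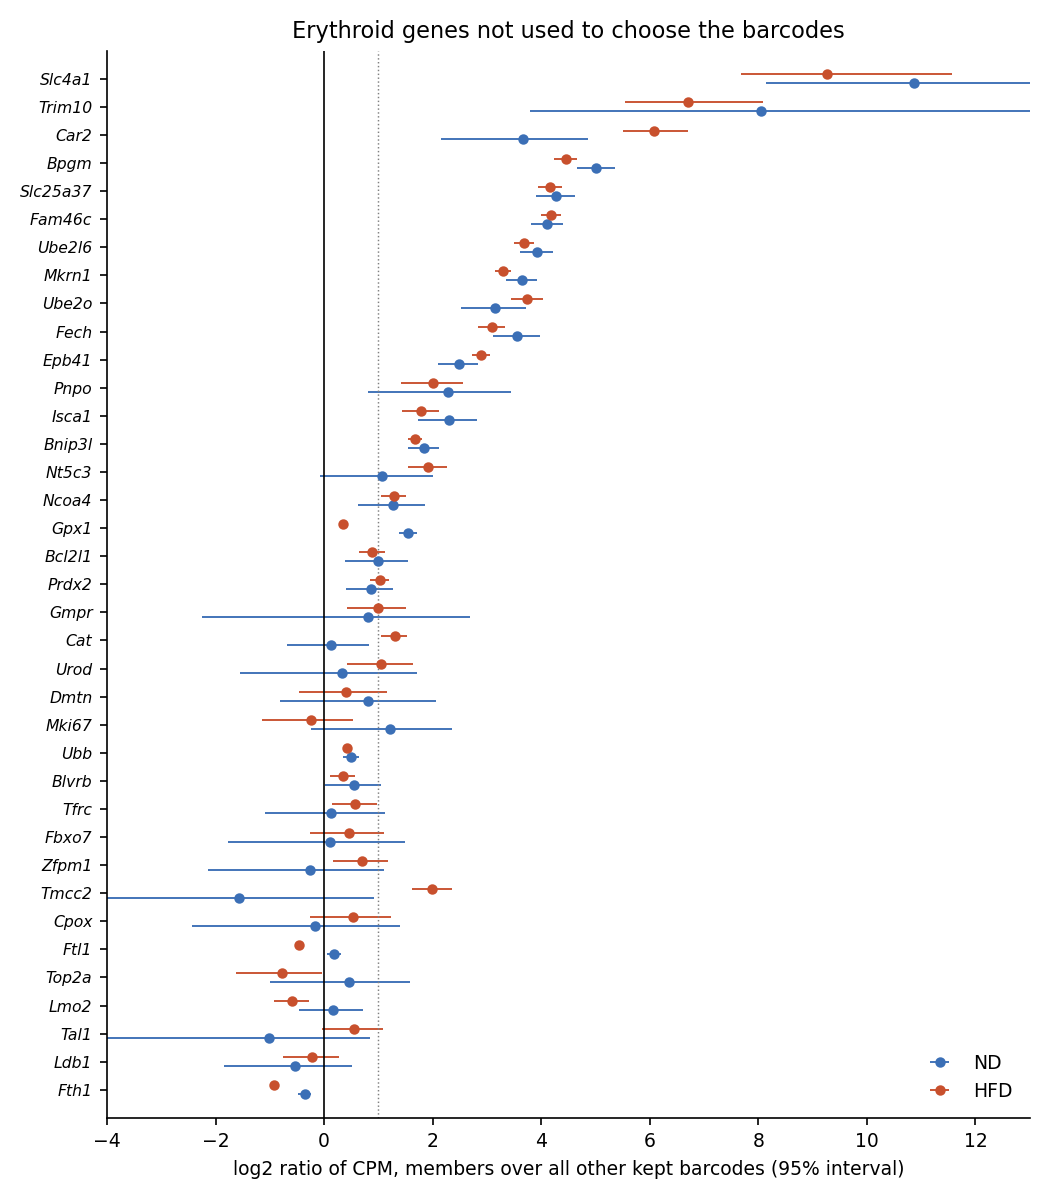
Log2 ratio of CPM in members over all other kept barcodes for 37 erythroid genes with at least 20 UMIs in members, without Alas2, in ND and HFD. Bars are exact 95% intervals, clipped at the edges of the plot, and the dotted line is 2-fold. Slc4a1 and Trim10 are farthest to the right in both libraries. In ND, Trim10 rests on 2 UMIs in members and 1 in the other barcodes.

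Most haemoglobin-rich barcodes also held the markers of another cell class. With at least 3 of 10 markers of a class required, 39 of 45 ND and 203 of 231 HFD members held 1 or more classes besides the erythroid one. The label of a single cell type was thus not borne out by the markers, and the barcodes are named here by their haemoglobin RNA. Endothelial markers were most frequent: 62.2% (46.5% to 76.2%) of ND and 71.9% (65.6% to 77.6%) of HFD members, while 51.3% and 55.6% of the remaining barcodes held them. Fibroblast markers were present in 11.1% (3.71% to 24.1%) and 7.79% (4.68% to 12.04%), compared with 25.9% and 25.4% of the remaining barcodes. Macrophage markers were present in 4.44% (0.543% to 15.1%) and 12.6% (8.57% to 17.5%), compared with 10.1% and 28.0%. In HFD, endothelial markers were thus more frequent, and fibroblast and macrophage markers less frequent, in members than in other barcodes beyond counting error. In ND the intervals of the endothelial and macrophage shares included the values of the other barcodes, and that of the fibroblast share lay below.

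The endothelial share was also higher at equal depth. After each barcode was thinned to 1000 UMIs that were not globin or Alas2, 66.7% (49.8% to 80.9%) of 39 ND members and 66.2% (59.7% to 72.3%) of 228 HFD members still held them, compared with 47.7% and 49.4% of the others. The step left out 6 ND and 3 HFD members, and 64 ND and 0 HFD barcodes of the rest, as too shallow. UMIs of both Pecam1 and Cdh5, the endothelial adhesion genes, were found in 25 ND and 143 HFD members.

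**Figure D4:**
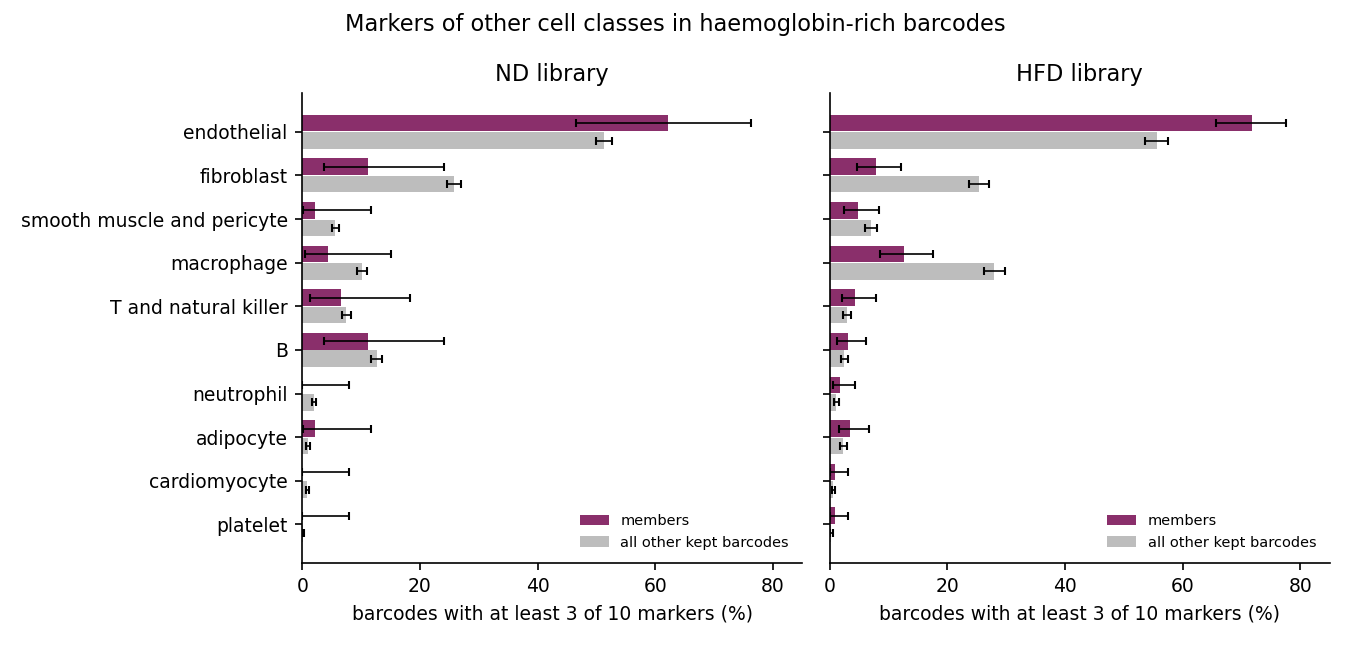
Share of barcodes with at least 3 of 10 markers of each class, in members (purple) and in all other kept barcodes (grey), with exact 95% intervals as bars. In HFD the endothelial share is 71.9% in members and 55.6% in the others, whereas the macrophage share is 12.6% and 28.0%.

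A small set held no other class of the lists: 6 ND and 28 HFD members, with medians of 247 and 270.5 genes and of 75.03% and 63.4% globin. Cd74 and H2-Aa, which are on none of the lists, had 0 UMIs in these ND members. In HFD they were at 6996 and 3409 CPM, compared with 3702 and 1688 CPM in other kept barcodes. Single HFD members of the set reached 2712 genes or fell to 16.2% globin. Holding no listed class thus does not mean that RNA of other cells was absent. In this set, mitochondrial UMIs made up 45.1% and 50.3% of what was left after globin and Alas2. In the barcodes that met the globin and Alas2 limits but had fewer than 200 genes, mitochondrial UMIs were 82.9% of the rest in 135 ND and 84.3% in 121 HFD barcodes. Among all barcodes with fewer than 200 genes and at most 30% mitochondrial UMIs, 90% of 150 in ND and 99.2% of 122 in HFD met the globin and Alas2 limits. Within the mitochondrial limit, the gene minimum thus left out further haemoglobin-rich droplets with little other RNA. These were more than there were members in ND and fewer in HFD. A further 39 ND and 870 HFD barcodes that met the globin and Alas2 limits failed both the gene minimum and the mitochondrial limit. With these included, droplets under 200 genes outnumbered the members in HFD as well.

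The level of red cell genes relative to globin was then compared between these sets. Per 1000 globin UMIs, Mkrn1 had 1.52 UMIs in ND members with endothelial markers only, 0.928 in ND members with no other class and 1.02 in the left-out ND barcodes with fewer than 200 genes. In HFD the values were 1.28, 1.68 and 1.21. Bpgm had 1.08, 0.928 and 0.868 in ND and 1.13, 1.49 and 1.21 in HFD. In ND members with no other class, Mkrn1 and Bpgm each rest on 12 UMIs (0.480 to 1.62). Slc4a1 was less even in HFD, with 0.174, 0.845 and 0.311. In ND it had 0.112, 0.077 and 0.090, which rest on 6, 1 and 25 UMIs. Its interval in ND members with no other class was 0.002 to 0.431. Ftl1, a ferritin chain made by most cells, was lower from the first set to the last, with 4.25, 2.40 and 1.29 in ND and 5.86, 3.08 and 1.49 in HFD. Fth1, the other ferritin chain, had 3.48, 3.63 and 0.561 in ND and 3.73, 3.18 and 0.978 in HFD.

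The endothelial part was not drawn evenly from all endothelial types. Among the 2405 ND and 1447 HFD barcodes with Pecam1 and Cdh5, members were 1.04% (0.674% to 1.53%) and 9.88% (8.39% to 11.5%). Among those with capillary markers (at least 3 of 10, such as Gpihbp1, Cd36 and Fabp4) and no aortic luminal ones, they were 1.26% (0.803% to 1.89%) of 1819 and 11.7% (9.94% to 13.7%) of 1159. With aortic luminal markers (such as Vwf, Vcam1 and Cytl1) and no capillary ones, they were 0 of 212 in ND, which allows up to 1.72% by the exact interval, and 0 of 76 in HFD, which allows up to 4.74%. Barcodes with both lists had 1 member among 345 in ND and 7 among 209 in HFD (3.35%, 1.36% to 6.78%). In HFD the interval of the luminal barcodes lay below that of the capillary ones, whereas in ND the intervals overlapped. Median depth without globin was higher in the luminal barcodes (6626 UMIs in ND, 7219 in HFD) than in the capillary ones (3739 and 5221). Its part in the difference was not tested.

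Members with Pecam1 and Cdh5 were then compared with the other barcodes that carried both genes, to see which RNA besides globin set them apart. Of 4838 genes with at least 100 UMIs in all and 4 in each group, 30 were 2-fold higher in members in both (0.62%) and 19 were 2-fold lower (0.393%). The median of all genes lay at a log2 ratio of 0.10 in ND and -0.05 in HFD. Genes of red cells were among the highest: Fam46c (log2 5.19, 4.80 to 5.57, in ND and 4.76, 4.45 to 5.06, in HFD), Slc25a37 (4.28 and 4.11), Mkrn1 (4.23 and 3.50) and Ube2l6 (3.67 and 3.46). Bpgm, Fech, Fam220a, Ube2o and Isg20 followed, with the smaller of their values between 2.57 and 3.43. Isg20 encodes an exonuclease that is induced by interferon, and in HFD members it had 95 UMIs in 60 barcodes.

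The 10 lowest genes included several of the extracellular matrix. Mgp, an inhibitor of calcification, was at a log2 ratio of -3.11 (-4.06 to -2.31) in ND and -5.40 (-6.03 to -4.84) in HFD. The matrix genes Fbln5 (-2.46 and -3.85) and Fbln2 (-1.63 and -2.61), the protease inhibitor Timp2 (-2.39 and -2.38) and Thbs1 (-2.80 and -1.96), which encodes thrombospondin, were lower as well. Gsn (-3.37 and -3.33), Fstl1 (-3.04 and -3.18), Pam (-3.36 and -2.81), Igfbp4 (-2.46 and -3.67) and Serpinb6b (-1.71 and -2.35) completed the 10. ND values rest on 4 to 12 UMIs in members. When both sides were limited to barcodes with a Gpihbp1 UMI, the number of lower genes was 7 instead of 19, while 29 instead of 30 were higher. With all members in place of those with Pecam1 and Cdh5, Gsn turned to a log2 ratio of 1.31 in ND and 0.71 in HFD, and Igfbp4 and Timp2 turned to 0.86 and 0.76 in ND.

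**Figure D5:**
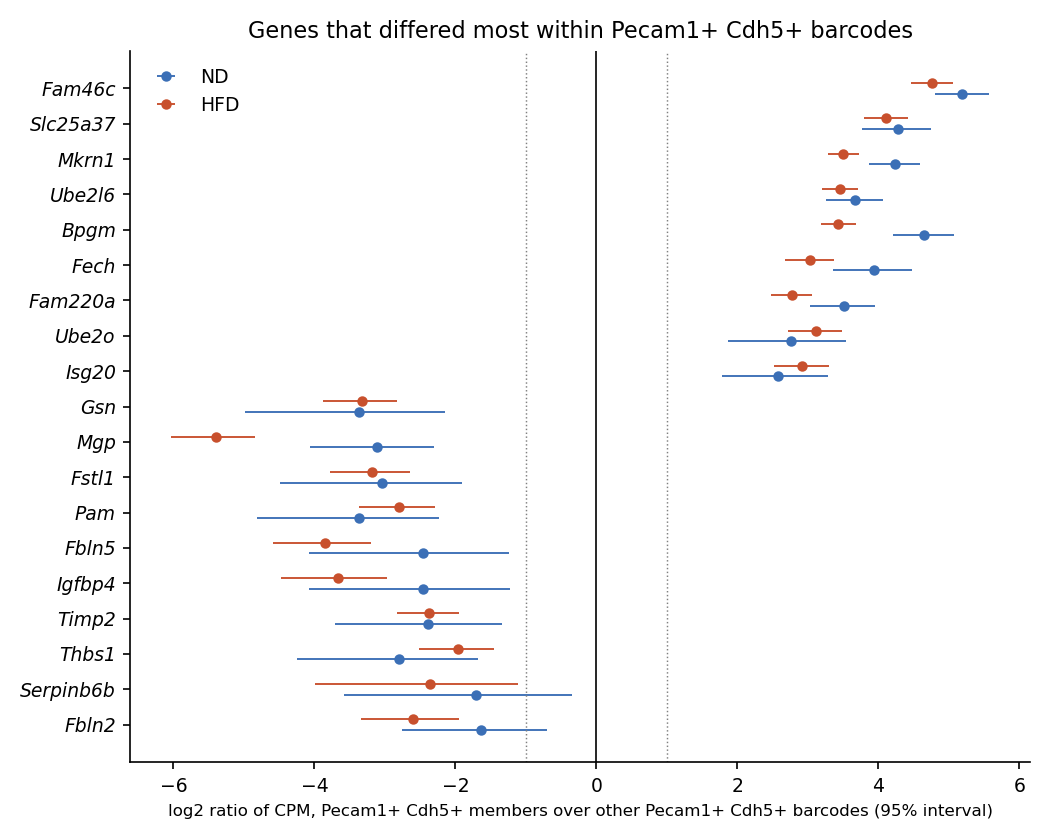
Log2 ratio of CPM in Pecam1+ Cdh5+ members over other Pecam1+ Cdh5+ barcodes, with exact 95% intervals, for 9 of the 10 highest and for the 10 lowest genes. The dotted lines mark 2-fold. Fam46c lies at 5.19 in ND and 4.76 in HFD, and Mgp at -3.11 and -5.40.

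Endothelial identity genes were close in level on both sides. For the gene lists only the minimum of 100 UMIs in all was applied, under which 0.446% of 10324 genes were 2-fold higher and 7.47% were 2-fold lower in both libraries. None of the 10 endothelial and none of the 10 capillary markers was 2-fold apart in both libraries. Cldn5, a tight junction gene, was at 2912 CPM in ND members and 2325 CPM in the others, and at 2342 and 2366 CPM in HFD. Gpihbp1, which anchors lipoprotein lipase on capillaries, was at 2123 and 1772 CPM in ND and at 2038 and 1756 CPM in HFD. Fabp4, a fatty acid carrier, was at 22358 and 20543 CPM in ND and at 31853 and 27387 CPM in HFD. Of the aortic luminal list, 9 of 10 genes were 2-fold lower in both libraries. Vwf had 1 UMI in ND members (7.24 CPM, against 301 CPM) and 5 in HFD members (6.27 CPM, against 256 CPM). Cytl1 had no UMI in ND members, at least 44.6-fold lower than in the others (3 UMIs over the group), and a log2 ratio of -3.63 (-4.18 to -3.13) in HFD, where 3 barcodes held its 32 UMIs.

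RNA of other cells in these barcodes was also compared. The fibroblast list was 2-fold lower for 9 of 10 genes, with a summed level of 94.2 CPM in ND members against 895 CPM, and 71.5 CPM in HFD members against 1016 CPM. The neutrophil list had 7 genes with enough UMIs, and all 7 were lower, at summed levels of 21.7 against 653 CPM and 40.1 against 402 CPM. For macrophage markers, no gene was 2-fold lower in both, and the summed level was 86.9 against 400.0 CPM in ND and 1132 against 1234 CPM in HFD. The T and natural killer list went the other way, with 2 of 9 genes 2-fold higher and 1 lower in both, at summed levels of 181 against 81.0 CPM in ND and 89.0 against 61.9 CPM in HFD. Of its genes, Cd3g had 4 UMIs in 1 ND member (log2 1.82, -0.08 to 3.22) and 22 UMIs in 4 HFD members (2.24, 1.45 to 2.99).

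Response genes gave smaller differences. Of 16 genes for the uptake and breakdown of haem and haemoglobin, 12 had enough UMIs, and 0 were 2-fold higher and 3 were 2-fold lower in members in both libraries. Hmox1, which degrades haem, had 1 UMI in ND members and was at 53.9 CPM in HFD members, against 57.7 CPM in the others (log2 -0.10, -0.58 to 0.35). None of the 15 immediate early genes, such as Fos, and none of the 15 genes of hypoxia and glycolysis was 2-fold apart in both libraries.

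HFD members were then compared with ND members. Of 1772 genes with enough UMIs, 87 were 2-fold higher in HFD (4.91%) and 54 were 2-fold lower (3.05%). These counts depend on the scaling: the median gene lay at a log2 ratio of -0.22 over the 3148 genes with at least 10 UMIs in each library, and relative to that median 149 genes were higher and 23 lower. Of the 87 higher genes, 82 had the same sign in the other Pecam1+ Cdh5+ barcodes, and 25 were also 2-fold there. Of the 54 lower genes, 47 had the same sign, and 14 were also 2-fold. For the named genes, the ratio in these other Pecam1+ Cdh5+ barcodes, which come from the same libraries, is given beside that of members.

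Slc6a6, the taurine transporter, was counted in more members than any other of the 10 named genes. It was at 168 CPM in ND members and 1176 CPM in HFD members, a log2 ratio of 2.80 (2.31 to 3.34), with UMIs in 16 of 45 and 163 of 231 barcodes. In the other Pecam1+ Cdh5+ barcodes the ratio was 2.99 (2.92 to 3.06). Lgals3, a galectin of macrophages, was at a log2 ratio of 2.97 (2.03 to 4.11) in members and 2.99 in the others. The lysosomal protease gene Lgmn (2.64, 1.58 to 3.97) and the macrophage receptor gene Mrc1 (2.63, 1.24 to 4.53) were also higher, against 1.47 and 1.21 in the others. Mrc1 had 4 UMIs in ND, all of them in 1 barcode. Lgals3 had 5 of its 9 ND UMIs in 1 barcode, and Lgmn 5 of its 7. In HFD, 124 of the 375 Lgals3 UMIs were in 1 barcode, and without it the log2 ratio was 2.40. Igkc, an immunoglobulin light chain, was lower, at -3.08 (-3.65 to -2.53) in members and -4.30 in the others. Over all other kept barcodes, with or without Pecam1 and Cdh5, Igkc was at -0.12. In ND, 30 of the 73 Igkc UMIs of members were in 1 barcode, and without it the log2 ratio was -2.34.

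For each of the remaining named genes, most UMIs in the library with the higher level came from a single droplet. For Eln, the elastin gene, 432 of 457 UMIs in HFD members came from 1 barcode, and without it the log2 ratio was -0.08 instead of 4.10. For Car3, 217 of 223 ND UMIs came from 1 barcode, and without it the ratio was -0.13 instead of -5.26. All 91 ND UMIs of Cd5l, a secreted protein of tissue macrophages, were in 1 barcode, and 29 of the 41 ND UMIs of Mfap5, a fibroblast gene, were in another. Without that barcode, Mfap5 was at -0.03 instead of -1.75. For Cxcl1, 36 of 60 ND UMIs were in 1 barcode, and without it the ratio was -0.86 (-1.54 to -0.13) instead of -2.07.

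Relative to globin, some red cell genes differed between the libraries, and this comparison was made after the values had been seen. Of the 42 erythroid genes with at least 20 UMIs in members, Alas2 included, 4 were 2-fold higher per globin UMI in HFD than in ND both in members and in the left-out barcodes with fewer than 200 genes, and 0 were 2-fold lower in both sets. Over all 6522 genes with as many UMIs in members, 3.56% were 2-fold higher and 0.598% were 2-fold lower in both sets by the same measure. Car2, Cat and Trim10 were among the 4. In ND, Trim10 had 2 UMIs in members and 9 in the left-out barcodes. Car2 had 0.067 UMIs per 1000 globin UMIs in ND members and 0.334 in HFD members (log2 ratio 2.32, 1.16 to 3.79) and 0.065 and 0.328 in the left-out barcodes (2.33, 1.60 to 3.15). Slc4a1 was at log2 0.95 (0.16 to 1.87) and 1.78 (1.13 to 2.48). Fech and Ube2l6 were at log2 ratios between -0.04 and 0.30 in both sets.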

How the data were processed

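The authors prepared 1 droplet library per diet (ND, HFD) and deposited raw UMI counts per gene and barcode from Cell Ranger (3.0.1 per the file headers), aligned to mm10 per the labels with barcodes below the limits of the study included. The submitters' processing notes also list bcl2fastq, UMI-tools, Seurat 3.2.0 and R 4.0.0. The joined counts of both libraries were not used here.

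Members were selected as stated in the report. The members and the gene lists were chosen with earlier results of these data known. UMIs were summed per library and set of barcodes and divided by all UMIs except globin and Alas2, as CPM. Exact 95% intervals were Poisson for sums, Clopper-Pearson for shares and conditional binomial for log2 ratios. They cover counting error only. Called means past 2-fold, in both libraries where 2 are named. A gene needed 100 UMIs over the groups compared and 4 in each, except that the gene lists had no minimum in each group and the erythroid lists needed 20 UMIs in members. Named were erythroid genes with at least 20 UMIs in members or defining genes at 0, the 10 highest and 10 lowest by the library with the smaller difference among Pecam1+ Cdh5+ barcodes, the 5 largest rises and 5 largest falls of HFD against ND, and examples of the other lists by UMIs. A class was held with 3 of its 10 markers, also after thinning to 1000 UMIs with seed 1. Doublets were not removed. With doublets expected at 6%, Scrublet (scanpy 1.11.5) marked 0 ND barcodes and 1 HFD barcode, so the top 6% of scores was left out as an alternative. These held 6 ND and 25 HFD members. Of the members, 0 in ND and 2 in HFD had a barcode that was also present in the other library.

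Promoters were taken from RefSeq (GRCm38.p6) and gene positions and transcripts from GENCODE M21. Transcripts were aligned with Biopython 1.88. The scripts ran on Python 3.11.15 (pandas 2.3.3, numpy 2.4.6, scipy 1.17.1, matplotlib 3.10.9). The ratios and the 2-fold rule were tested on simulated data. The simulated counts were independent, the genes lay well above the UMI minimum and the changes were larger than 2-fold. The check thus does not cover genes near the minimum, changes near 2-fold or UMIs concentrated in single barcodes. A few genes that the rule names are not reported here and not plotted.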

Additional observations from a re-analysis of the deposited data

Results flagged for a closer look

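Droplets outside the comparisons also carried the haemoglobin signal. Among the barcodes left out by the gene or mitochondrial limits, 175 in ND and 1090 in HFD met the globin and Alas2 limits. In ND, 135 of them failed only the gene minimum, 1 only the mitochondrial limit and 39 both. In HFD, 121 failed only the gene minimum, 99 only the mitochondrial limit and 870 both. Members held 84.5% of the globin UMIs of kept barcodes in ND and 91.9% in HFD, but 18.9% and 18.3% of the globin UMIs of the whole library.

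The difference between diets had opposite signs in members and in other Pecam1+ Cdh5+ barcodes for 2 of the named genes, with both intervals apart from 0. The difference between these ratios was not tested. Cd5l had a log2 ratio of HFD over ND of -3.40 (-3.94 to -2.87) in members and of 6.44 (4.55 to 9.50) in the others, where ND had 2 UMIs. Mfap5 had -1.75 (-2.34 to -1.15) in members and 0.38 (0.23 to 0.52) in the others. The members here included those without Pecam1 and Cdh5. Over all other kept barcodes, Cd5l was at 5.14 and Mfap5 at -0.43, so the sign of Mfap5 was then that of members. As given above, the ND value of each gene in members rests mainly on 1 barcode. Without that barcode, Cd5l had 0 UMIs left in ND members, and its log2 interval ran from 1.06 upward, the same sign as in the others. Mfap5 was then at -0.03 (-0.93 to 0.99). The opposite signs were thus not seen without these barcodes.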

How the results depend on the processing

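No paired analysis was possible because each diet has 1 library, and for the same reason no replicate could be left out. Of 84 values recomputed for the main results, 70 stayed within 1.5 times a count or within the interval of a share or median. Without an Alas2 minimum, ND had 68 members with a median globin share of 25.1%, and the HFD median was 24.3%. With at most 20% mitochondrial UMIs, HFD had 112 members with a median of 22.2%. Pecam1 and Cdh5 as the endothelial criterion gave 61.9% in HFD. With all members instead of Pecam1+ Cdh5+ ones, 111 genes were 2-fold higher (26 shared with the 30) and 33 lower (8 shared with the 19). Limiting both sides to barcodes with Gpihbp1, an alternative chosen after seeing the data, gave 7 lower genes and took Serpinb6b to 0.011 in ND. For HFD over ND, the median of ratios gave 149 higher and 23 lower genes, a minimum of 50 UMIs gave 182 and 140, and members with Pecam1 and Cdh5 gave 57 higher genes. Signs also changed for Gsn (1.31 in ND, 0.71 in HFD), Igfbp4 (0.86, ND) and Timp2 (0.76, ND) with all members, for Mfap5 without the top 6% of doublet scores (2.33), and for Eln among members with Pecam1 and Cdh5 (-0.12) or without its top barcode (-0.079), also chosen after seeing the data. Without its top barcode, Cd5l had 0 UMIs in ND members, so its ratio had no finite value, and its log2 interval ran from 1.06 upward. The causes were not tested. Depth limits ND most: a gene at 0 UMIs in its members may reach 14.9 CPM.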

Other observations

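RNA of neutrophil granule genes in HFD members was concentrated in 1 droplet. All 222 UMIs of Ngp and all 92 of Camp, granule genes of neutrophil precursors, were in 1 barcode of 809 genes with 9.88% globin and 1 Alas2 UMI, which also held 555 of the 653 S100a8 UMIs. Members of ND had no UMI of Ngp or Camp, and the other ND barcodes held 1316 and 1584. At least 3 of 10 neutrophil markers were present in 1.95% of those other barcodes. They were present in 0 of 45 ND members, which allows up to 7.87% by the exact interval. In ND, all 6 Mki67 UMIs and 5 of the 6 Top2a UMIs were in 1 member of 3876 genes with 5.02% globin, the same droplet that held the Cd5l UMIs.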
